A study of Mus musculus with 8 samples.

Results

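Chosen by name, with earlier results of these data known, were 10 genes of the later germ line and of meiosis. These were Ddx4, Dazl, Sycp1, Sycp3, Hormad1, Taf7l, Brdt, Tex19.1, Stra8 and Rec8, out of 19938 genes with a probe of a single gene symbol. All 10 had such a probe. Hormad1 had 2 probes and was represented by the one of higher mean. Transcripts were measured by microarray in primordial germ cells (PGCs), the precursors of sperm and eggs, at embryonic day 9.5, when these cells migrate. The 4 WT embryos (Ror2+/+) had 25, 25, 22 and 21 somites, and the 4 mutants, homozygous for the Y324C change in the receptor tyrosine kinase Ror2, had 24, 22 to 23, 23 and 21 to 22. All came from heterozygous mothers and from heterozygous fathers that were homozygous for an Oct4 reporter without the proximal enhancer, so every embryo carried that reporter, and the strain was mixed. GFP-positive cells of the posterior part of 1 embryo made 1 array, so the embryo is the replicate. The labels do not say which embryos were littermates.

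Most of the 10 genes are known from a later stage, when PGCs have reached the gonad, lose DNA methylation and enter meiosis or arrest. Ddx4 (Vasa) is an RNA helicase of germ cell granules, and Dazl is an RNA-binding protein needed for germ cells to take up gamete development. Stra8 is induced by retinoic acid and drives entry into meiosis. Rec8 is the meiotic kleisin subunit of cohesin, Hormad1 a HORMA domain protein of the chromosome axis, and Sycp3 and Sycp1 build the lateral element and the transverse filament of the synaptonemal complex. Taf7l is a germ cell relative of a TFIID subunit and Brdt a testis bromodomain protein. Tex19.1 takes part in control of retrotransposons in germ cells and is also known from pluripotent cells. Many genes of this kind have CpG-rich promoters that are methylated or repressed in somatic cells. The sequence CACGTG (an E-box) binds Max together with Mga, and GCGGGA lies within the site of E2F factors such as E2f6. These factors belong to a complex that represses germ line genes in other cells.

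Start regions of 5 genes are shown to compare the placing of these motifs, with both in capitals (GCGGGA on the other strand reads TCCCGC) and all other bases in lower case. Each is the 250 bases before the RefSeq start of the gene (GRCm38.p6), 5′ to 3′ on the strand of the gene. Tex19.1 and Rec8 had the highest values of the 10, Ddx4 and Sycp3 varied most between embryos, and Stra8 varied least.
Tex19.1, chr11:121145893-121146142 (+ strand): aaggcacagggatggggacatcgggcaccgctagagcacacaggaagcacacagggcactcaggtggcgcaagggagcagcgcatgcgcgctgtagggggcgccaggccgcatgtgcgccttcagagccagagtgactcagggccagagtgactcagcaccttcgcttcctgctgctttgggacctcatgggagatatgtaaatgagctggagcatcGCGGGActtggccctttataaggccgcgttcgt
Rec8, chr14:55617916-55618165 (+ strand): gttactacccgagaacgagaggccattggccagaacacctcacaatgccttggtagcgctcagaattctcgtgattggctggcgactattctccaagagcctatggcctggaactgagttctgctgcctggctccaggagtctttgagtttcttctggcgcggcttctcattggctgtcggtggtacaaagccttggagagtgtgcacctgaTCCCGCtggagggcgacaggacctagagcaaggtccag
Ddx4, chr13:112652311-112652560 (- strand): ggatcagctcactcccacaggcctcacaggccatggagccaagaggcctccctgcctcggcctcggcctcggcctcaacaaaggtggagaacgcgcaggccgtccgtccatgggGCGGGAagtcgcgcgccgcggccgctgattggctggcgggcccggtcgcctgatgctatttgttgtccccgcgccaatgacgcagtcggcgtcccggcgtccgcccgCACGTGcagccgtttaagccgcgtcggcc
Sycp3, chr10:88459337-88459586 (+ strand): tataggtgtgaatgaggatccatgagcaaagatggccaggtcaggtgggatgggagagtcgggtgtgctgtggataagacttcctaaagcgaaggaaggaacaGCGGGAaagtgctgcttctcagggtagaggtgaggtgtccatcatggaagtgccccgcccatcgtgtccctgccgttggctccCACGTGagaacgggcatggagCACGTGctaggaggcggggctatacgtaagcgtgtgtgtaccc
Stra8, chr6:34920698-34920947 (+ strand): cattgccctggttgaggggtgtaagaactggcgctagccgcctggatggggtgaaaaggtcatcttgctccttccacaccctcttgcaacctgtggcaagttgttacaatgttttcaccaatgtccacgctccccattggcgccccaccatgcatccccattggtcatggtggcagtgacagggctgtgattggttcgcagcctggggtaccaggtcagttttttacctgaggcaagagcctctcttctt

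All 10 genes matched the RefSeq table of start regions. Hormad1 had 2 windows there, and its matches and CpG are those of the window at the lower coordinate. CACGTG, which reads the same on both strands, was present before the start of 6 of the 10 genes: Ddx4, Sycp1, Sycp3, Hormad1, Taf7l and Brdt. Over all 32851 windows of the same length it was present in 6.02%. Sycp3 and Hormad1 held 2 copies each, and 0.429% of all windows held 2 or more. GCGGGA, searched on both strands, was present in 5 of the 10, against 16.9% of all windows: Ddx4, Sycp3, Hormad1, Tex19.1 and Rec8. No match of one motif overlapped the other. Ddx4, Sycp3 and Hormad1 held both, as did 1.45% of all windows, and Dazl and Stra8 held neither. The windows of the 10 genes held a median of 15.5 CpG, from 5 in Stra8 to 31 in Ddx4, and all windows a median of 6. Among windows with at least 10 CpG, 9.37% held CACGTG and 37.3% GCGGGA, beside 6 and 5 of the 9 members in that range. These are matches of letters, and binding was not measured.

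**Figure D1:**
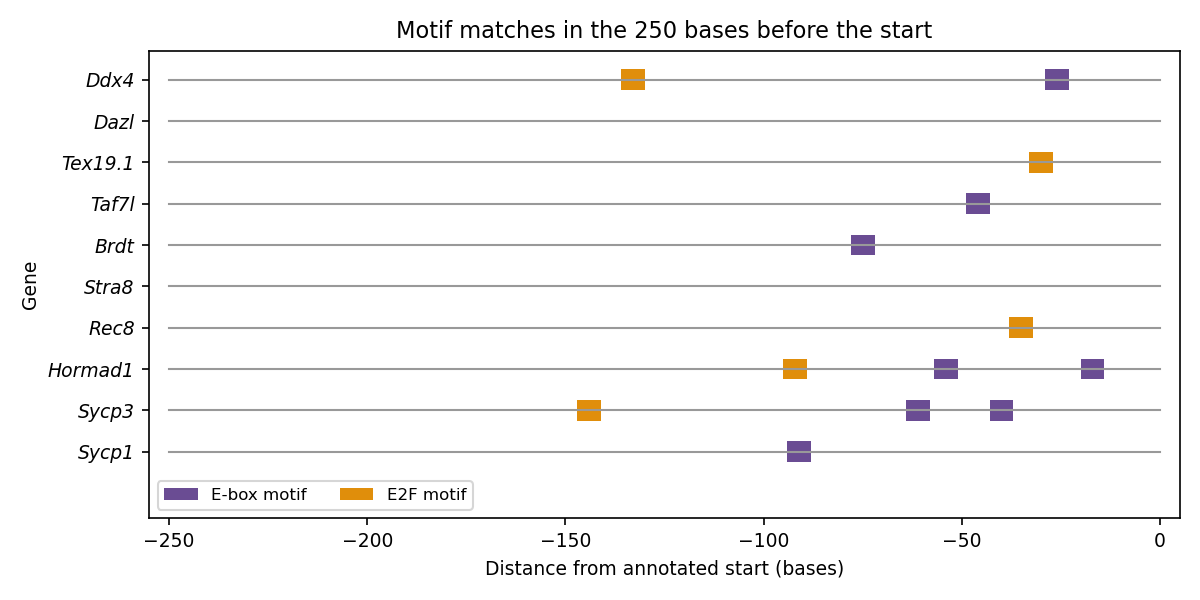
Positions of CACGTG (E-box, purple) and GCGGGA on either strand (E2F, orange) in the 250 bases before the annotated start of each gene, with distance from the start in bases on the x axis. The 8 E-box matches lie between positions -94 and -15, and Dazl and Stra8 have no match of either motif.

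The first question was which of these genes are already present in migrating PGCs. No detection calls or scanner values were used here. Olfactory and vomeronasal receptor genes, which act in sensory neurons, served as a yardstick, and a gene was counted as above their range where it exceeded the 95th percentile of the 1194 receptor genes on the same array. This percentile ran from 5.06 to 5.51 over the arrays (all values are log2, and array medians over all probes were 5.37 to 5.58). Probes differ in affinity, so the yardstick is no detection limit, and the values do not rank the genes by abundance. Tex19.1 and Rec8 were above it in all 8 arrays, which is 2 of 10 members. Of all genes, 49.0% were. Ddx4 was above it in 5 arrays, and Sycp3 and Hormad1 in 2 each. Dazl, Sycp1, Taf7l, Brdt and Stra8 were above it in no array, which is 5 of 10 members, against 32.6% of all genes.

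**Figure D2:**
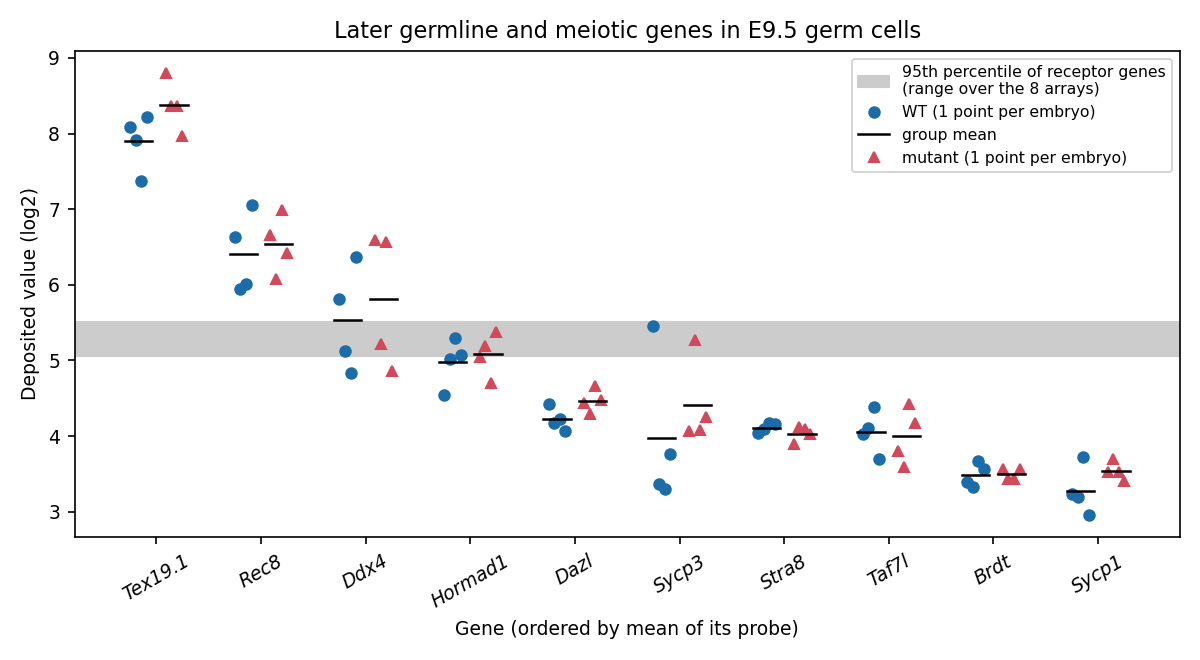
Deposited log2 values of the 10 genes, with 1 point per embryo, WT as circles, mutants as triangles, black lines for group means and a grey band for the range of the 95th percentile of receptor genes over the arrays. All points of Tex19.1 and Rec8 lie above the band, Ddx4 spans it, and all points of Dazl, Stra8, Taf7l, Brdt and Sycp1 lie below it.

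Tex19.1 had values of 8.09, 7.91, 7.37 and 8.22 in WT 1 to 4 and of 8.80, 8.37, 8.36 and 7.96 in mutants 1 to 4. Its lowest value exceeded those of 99.8% of receptor genes on that array, and in 6 arrays it exceeded all of them. Rec8 had values of 6.63, 5.95, 6.02 and 7.06 in WT and of 6.65, 6.08, 6.99 and 6.42 in mutants. The groups overlap for both genes. Rec8 exceeded between 98.2% and 99.9% of receptor genes, and passed their 99th percentile in 6 arrays, while Tex19.1 passed it in all 8.

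Ddx4 had values of 5.82, 5.13, 4.84 and 6.37 in WT and of 6.59, 5.22, 6.57 and 4.86 in mutants. WT 1, WT 4, mutant 1 and mutant 3 were high, from 5.82 upward, and the other 4 arrays lay from 4.84 to 5.22, so each genotype held 2 arrays of either kind. Its SD over the 8 arrays, 0.76, exceeded that of 98.6% of all genes. Sycp3 had values of 5.46, 3.37, 3.30 and 3.77 in WT and of 4.07, 5.26, 4.08 and 4.25 in mutants. WT 1 and mutant 2 were its only arrays above the receptor percentile, by 0.40 and 0.15. Its SD of 0.80 exceeded that of 98.8% of all genes.

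Hormad1 had values of 4.54, 5.02, 5.30 and 5.08 in WT and of 5.05, 5.19, 4.71 and 5.37 in mutants. Mutants 2 and 4 passed the receptor percentile by 0.08 and 0.07, margins smaller than the SD within either group (0.32 in WT and 0.28 in mutants). Its other probe was lower, with a mean of 2.95 against 5.03, and the mean of both probes passed the percentile in 0 arrays. Dazl had values of 4.42, 4.17, 4.23 and 4.07 in WT and of 4.43, 4.29, 4.66 and 4.47 in mutants, and its values minus the percentile ran from -1.31 to -0.47. This gene, known for licensing gamete development, thus had no array above the yardstick.

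The remaining members were low, and Stra8 and Brdt were also even. Stra8, the retinoic acid target that opens meiosis, ran from 3.89 to 4.17 over all arrays, and 1.29% of genes had a smaller SD than its 0.09. The bromodomain gene Brdt ran from 3.33 to 3.67, Sycp1 from 2.96 to 3.73 and Taf7l, on the X chromosome, from 3.59 to 4.42. The SD of Sycp1, 0.27, exceeded that of 57.7% of all genes, and that of Taf7l, 0.31, that of 70.1%. In no array did any of these 4 genes exceed more than 81.1% of receptor genes.

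Related genes of fixed lists were read by the same yardstick, which 49.0% of all genes exceeded in all 8 arrays. Of 8 measured genes of the axis and synaptonemal complex, 3 were above it in all arrays: Syce2, a central element protein (mean 9.98), Stag3, a meiotic cohesin subunit (7.88), and the Hormad1 relative Hormad2 (6.33). Of 19 recombination genes, 5 were: Mei4 (6.15), which acts in break formation, Mlh3 (6.01), Tex15 (6.56), Psmc3ip (7.90), a partner of the recombinases, and Ythdc2 (6.22), an RNA-binding factor of meiotic entry. Of 18 other germ cell genes, 7 were: the PGC survival factors Nanos3 (8.27) and Dnd1 (8.28), the piRNA pathway genes Piwil2 (6.23), Tdrd12 (6.50) and Rnf17 (6.76), and Dppa2 (7.17) and Dppa4 (8.47). Spermatid genes, known from much later cells, were above it in 3 of 21 cases (Odf2 at 9.55, Prm3 at 5.74 and Prm2 at 5.73), and oocyte genes in 2 of 15 (Ooep at 7.12 and Sohlh1 at 5.70). Odf2 is also known from centrioles of many cells. All 5 measured broadly expressed relatives of members (Rad21, Taf7, Brd2, Brd3 and Ddx3x) were above it in every array.

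The sort was checked with the markers of PGCs, of which 15 of 15 were above the yardstick in all arrays, with list means of 9.65 to 9.90 in WT and 9.80 to 9.95 in mutants. Markers of other cells were above it in all arrays for 6 of 9 hindgut genes, 5 of 9 tailbud genes, 3 of 8 erythroid, 3 of 10 macrophage, 3 of 10 endothelial and 2 of 10 trunk mesenchyme genes. The share over all genes was 49.0%. The 3 endothelial genes were Pecam1 (8.68), Cldn5 (6.51) and Egfl7 (6.40), Cdh5 (5.44) was above it in 7 arrays, and Kdr, Tek and Emcn were in none. WT 3 stood apart. Its SD over genes was the smallest (1.77, against 1.82 to 1.95), its PGC list mean the lowest, and its erythroid (5.55, against 4.85 to 5.27) and macrophage (5.31, against 4.81 to 5.14) means the highest. WT 3 and mutant 4 also had high Xist (7.07 and 6.31, against 3.50 to 4.11) and low Y-linked means (3.48 and 3.47, against 6.15 to 6.50). In bulk samples, fewer cells of a type and less RNA per cell cannot be told apart.

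The comparison of mutant with WT asked whether the Ror2 change goes with other levels of these transcripts. None of the 10 members passed (limma, Benjamini-Hochberg adjusted p from 0.973 to 0.994), and neither did any gene, 0 of 19938 (0%). At an unadjusted limma p under 0.05 there were 0 members, beside 4.68% of all genes (543 higher and 391 lower in mutants, and 796 and 230 after median centring). The groups did not overlap for 0 members, beside 2.52% of all genes. Values were higher in mutants for 8 members and lower for 2, with a median difference of 0.18, against -0.02 over all genes. Of the higher members, Dazl, Sycp1 and Brdt were above the receptor percentile in no array, and Sycp3 and Hormad1 in 2 each. After median centring or quantile normalization 9 members were higher, as Taf7l changed sign. With 1 array left out, between 6 (without WT 1, WT 2 or mutant 4) and 9 were higher, and the median difference was lowest at 0.094 without mutant 1. Markers of other cells lay lower in mutants for 8 of 8 erythroid (median -0.25) and 7 of 10 macrophage genes (-0.12). The same held for 7 of 9 tailbud (-0.13) and 5 of 9 hindgut genes (-0.01). It held for 5 of 10 endothelial (0.01) and 4 of 10 trunk mesenchyme genes (0.05), beside 11036 of all 19938 genes. PGC markers were higher for 10 of 15 (0.08). Erythroid means ran from 4.85 to 5.55 in WT and 4.89 to 5.10 in mutants, macrophage means from 4.86 to 5.31 and 4.81 to 5.12, and tailbud means from 5.63 to 5.99 and 5.64 to 5.77, so the groups overlap. Their part in the member differences was not tested.

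**Figure D3:**
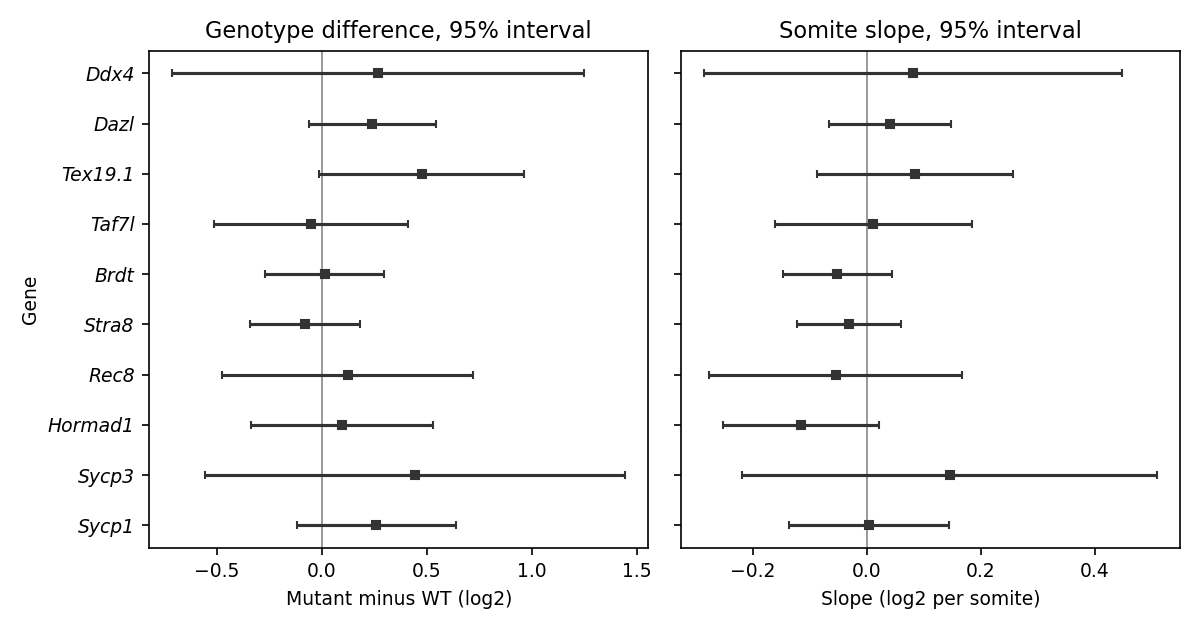
Mutant minus WT differences (left, log2) and slopes per somite with genotype in the model (right, log2 per somite), as squares with 95% limma intervals, for the 10 genes. Every interval in both panels includes 0, and those of Ddx4 and Sycp3 are the widest in both panels.

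Among the RNA-binding and retrotransposon members (Ddx4, Dazl and Tex19.1), Tex19.1 differed most, by 0.48 ± 0.22 (SE) or 1.39-fold. Its interval ran from -0.01 to 0.97, and its limma adjusted p was 0.973 (unadjusted 0.0557). Mutant 1 was above every WT value, mutants 2 and 3 too, and mutant 4 lay below WT 1 and WT 4. Without WT 3, the lowest array, the difference was 0.30 ± 0.20, and without mutant 1, the highest, 0.33 ± 0.22. It was 0.61 ± 0.22 without mutant 4, 0.58 ± 0.23 without WT 4 and 0.52 ± 0.22 with somite number in the model (unadjusted limma p 0.0204, 0.0320 and 0.0421, adjusted 0.847, 1.000 and 0.747). Dazl differed by 0.24 ± 0.14 (interval -0.06 to 0.54). Mutants 1, 3 and 4 were above all WT values, mutant 1 barely so (4.434 against 4.425 in WT 1). Every Dazl value lay below the receptor percentile of its array. Ddx4 differed by 0.27 ± 0.44 (interval -0.72 to 1.25). Its difference was 0.0069 without mutant 1, 0.015 without mutant 3, 0.034 without WT 3 and 0.13 without WT 2, and was 0.55 without WT 4, 0.47 without mutant 2 and 0.58 without mutant 4.

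The genes of the chromosome axis and synaptonemal complex did not pass either. Rec8 differed by 0.12 ± 0.27 (SE, interval -0.48 to 0.72), and its direction turned without WT 2, without WT 3 and without mutant 3. Hormad1 differed by 0.10 ± 0.20 (interval -0.34 to 0.53). Its other probe differed by 0.68 ± 0.30, with an unadjusted limma p of 0.0463, and had its highest values in mutants 3 and 4 (3.82 and 3.80, against 2.12 to 2.98 in the other 6 arrays). The 2 probes of Hormad1 thus disagree in size, and the mean of both differed by 0.39 ± 0.17. That other probe was low, with a mean of 2.95, while the median over receptor genes was 3.51 to 3.78 in these arrays. Sycp3 differed by 0.44 ± 0.45 (interval -0.56 to 1.45), by 0.94 ± 0.29 without WT 1, its highest array (unadjusted limma p 0.0102, adjusted 0.544), and by 0.16 without mutant 2. Sycp1 differed by 0.26 ± 0.17 (interval -0.12 to 0.64), by 0.41 ± 0.14 without WT 3, its highest array, and by 0.15 ± 0.17 without WT 4, its lowest.

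The intervals were narrowest for Stra8 and Brdt. Brdt differed by 0.01 ± 0.13 (SE, interval -0.27 to 0.30) and Stra8 by -0.08 ± 0.12 (interval -0.34 to 0.18). Taf7l differed by -0.05 ± 0.21 (interval -0.52 to 0.41), and its sign turned after median centring and after quantile normalization.

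Somites form in sequence and so give the age of an embryo. Slopes on somite number were fitted with genotype in the model. None of the 10 members passed (limma adjusted p from 0.547 to 0.991), and 0 of 19938 genes did (0%). At an unadjusted limma p under 0.05 there were 0 members, beside 9.74% of all genes. The slope was positive for 6 members and negative for 4, with a median of 0.01 log2 per somite, against -0.02 over all genes. Slopes were negative for 10 of 10 trunk mesenchyme, 9 of 10 macrophage, 8 of 9 hindgut and 8 of 10 endothelial markers. They were also negative for 7 of 8 erythroid markers, and the medians of these lists ran from -0.10 to -0.06. Tailbud markers had 6 of 9 negative slopes (median -0.03) and PGC markers 7 of 15, beside 11868 of all 19938 genes. The part of these markers in the member slopes was not tested. Hormad1 had the smallest p, with a slope of -0.12 ± 0.06 (SE, interval -0.25 to 0.02, unadjusted limma p 0.0900), and the mean of its probes had -0.03 ± 0.06. WT 1, with 25 somites, held its lowest value and mutant 4, with 21 to 22, its highest. Tex19.1 had a slope of 0.08 ± 0.08 and Ddx4 of 0.08 ± 0.16. Without WT 4, the youngest embryo at 21 somites, these were 0.25 ± 0.06 and 0.41 ± 0.14, with unadjusted limma p-values of 0.00275 and 0.0200 and adjusted ones of 0.357 and 0.418. WT 4 was the highest WT array for both genes. The slope of Tex19.1 was 0.033 without WT 3, 0.045 without mutant 1 and 0.047 without mutant 4, and that of Ddx4 was 0.19 without WT 2, 0.053 without WT 1, 0.0080 without WT 3, -0.0018 without mutant 1 and -0.022 without mutant 4. Dazl (0.04 ± 0.05), Sycp3 (0.15 ± 0.16), Rec8 (-0.05 ± 0.10) and Stra8 (-0.03 ± 0.04) had intervals that include 0.

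**Figure D4:**
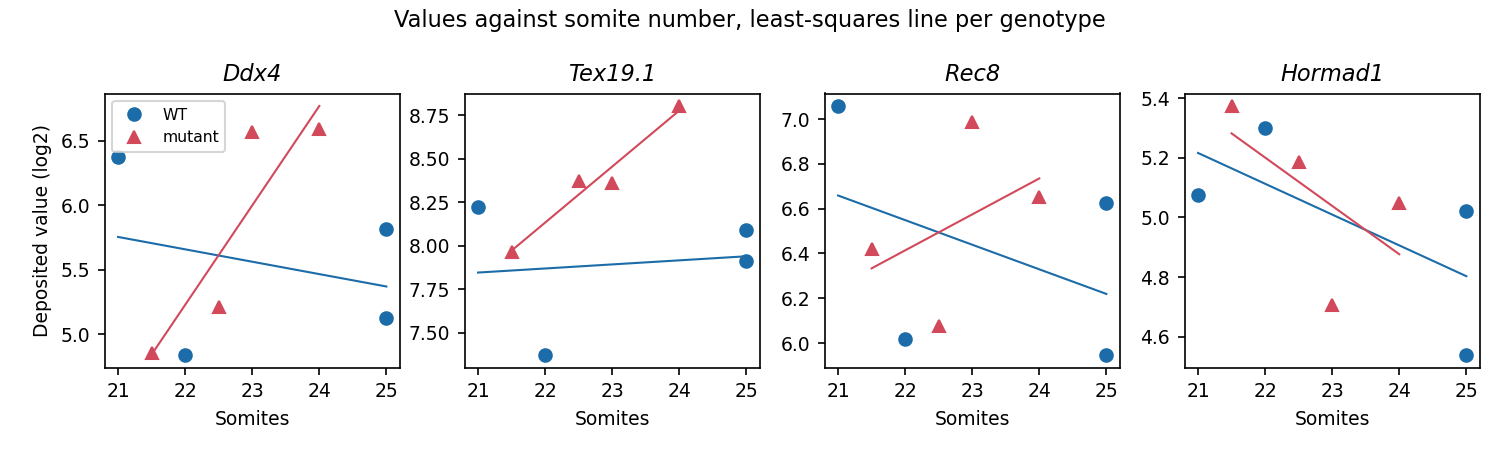
Deposited log2 values of Ddx4, Tex19.1, Rec8 and Hormad1 against somite number (midpoint where a range is given), with 1 point per embryo, WT as circles, mutants as triangles and a least-squares line per genotype. The mutant line of Ddx4 rises by 0.77 per somite and the WT line falls by 0.10, while Hormad1 has a negative line in both genotypes.

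The slopes of the genotypes were compared by an interaction term. No gene passed, 0 of 19938 (0%), and 1 member had an unadjusted limma p under 0.05, beside 4.52% of all genes. That member was Ddx4, whose slope was -0.10 in WT and 0.77 log2 per somite in mutants, a difference of 0.87 ± 0.30 (SE, unadjusted limma p 0.0201, adjusted 0.999). Its 2 mutants of 23 and 24 somites were at 6.57 and 6.59, and those of 22 to 23 and 21 to 22 at 5.22 and 4.86. Among the WT embryos the youngest was the highest. Mutant 4, the lowest and youngest mutant, is also an array of high Xist, and without it the unadjusted limma p was 0.124. It was 0.0541 without WT 4 and 0.0559 without mutant 1.

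Pairs of members were compared over the 8 arrays, 45 in all. Ddx4 and Rec8 had the closest relation, with a Pearson r of 0.85 (exact permutation p 0.0155, two-sided, adjusted over the pairs 0.484) and a Spearman rho of 0.79 (exact permutation p 0.0279, adjusted 0.419). It was 0.85 within groups, 0.97 in WT and 0.79 in mutants. Without mutants 1 and 3, the arrays farthest from the Ddx4 median, r was again 0.85. WT 1, WT 4, mutant 1 and mutant 3 held the 4 highest values of both genes. Ddx4 and Tex19.1 had an r of 0.75 (exact permutation p 0.0215, adjusted 0.484) and a rho of 0.83 (exact permutation p 0.0154, adjusted 0.419), with r at 0.55 once mutants 1 and 3 were left out. Of the 45 pairs, 22 had a positive r, 2 had an exact p under 0.05 and 0 passed the adjustment.

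**Figure D5:**
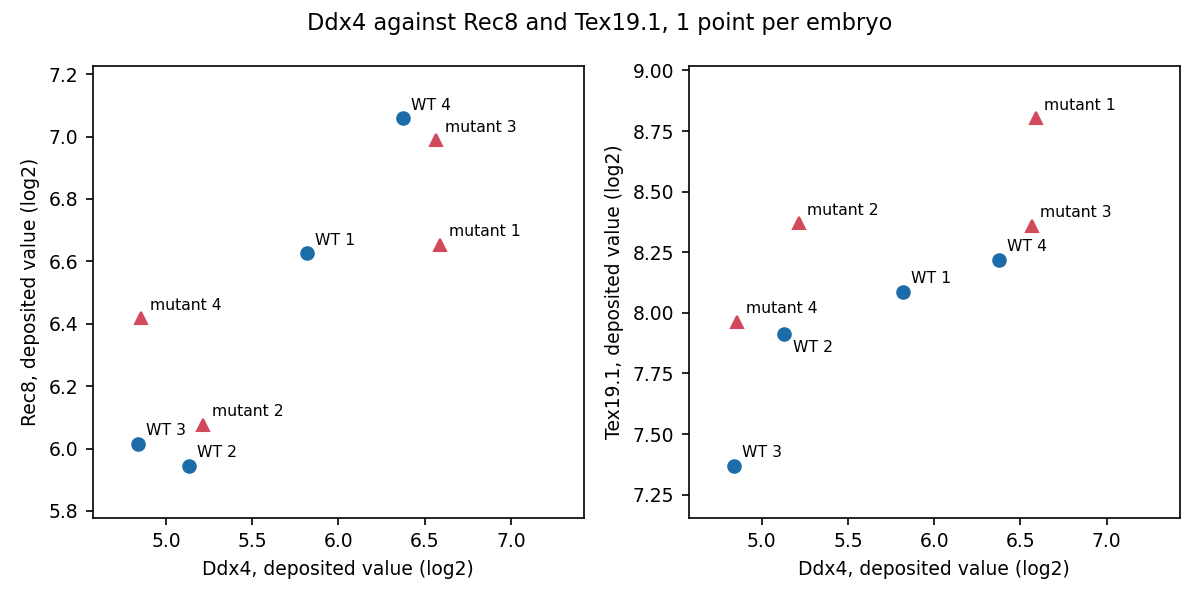
Log2 values of Rec8 (left) and Tex19.1 (right) against Ddx4, with 1 labelled point per embryo, WT as circles and mutants as triangles. WT 1, WT 4, mutant 1 and mutant 3 lie at the upper right of the Rec8 panel, and WT 3 at the lower left of the Tex19.1 panel.

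Array features moved with some members. The 2 arrays of high Xist, WT 3 and mutant 4, had the 2 lowest values of Ddx4 (4.84 and 4.86) and the 2 highest of Hormad1 (5.30 and 5.37). For the X-linked Taf7l they were at 4.38 and 4.18, with mutant 3 higher at 4.42. WT 3 was also lowest for Tex19.1 and Sycp3 and highest for Sycp1, Stra8 and Brdt. The part of these features in the values was not tested. Left out together, these arrays left a Tex19.1 difference of 0.44 ± 0.18 (SE, unadjusted limma p 0.0369, adjusted 0.986) and a Ddx4 difference of 0.35 ± 0.42.

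By Pearson r over the 8 arrays among 18703 other genes, the closest to Tex19.1 were Ppil1 and Ipo4 (both 0.96), and the closest to Rec8 were Fmn2 (0.95) and Sorl1 (0.93). There were 39 genes with r above 0.9 to Tex19.1 and 18 to Rec8, so the named genes are the first of many.

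Genes around the members were read from the same fits, and none of those named here passed for genotype (limma adjusted p 0.973 or higher). Among 8 axis and synapsis genes, 2 had an unadjusted limma p under 0.05, beside 4.68% of all genes. These were the meiotic cohesin gene Smc1b (0.65 ± 0.24, SE) and Syce2 (0.30 ± 0.13), both higher in mutants. The median difference of the list was 0.01, and Smc1b was above the receptor percentile in 3 arrays. Of 19 recombination genes, 6 lay above 0 and 13 below, with a median of -0.10 and 0 at an unadjusted limma p under 0.05. The meiotic recombinase gene Dmc1 (-0.53 ± 0.25) and Spata22 (-0.30 ± 0.15) had the smallest p. Of 18 other germ cell genes, 6 lay above 0, with a median of -0.12, and Rnf17, a Tudor domain gene, had the smallest p at -0.66 ± 0.21. Mean levels of these 3 lists ran from 5.38 to 5.52, 4.80 to 5.15 and 5.52 to 5.88 in WT and from 5.29 to 5.73, 4.74 to 4.95 and 5.57 to 5.61 in mutants.

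Retinoic acid, which induces Stra8, and the repression of germ line promoters were covered by further lists. Of 16 genes of retinoic acid synthesis, breakdown and reception, 10 lay above 0 (median 0.02). Only 1 of them had an unadjusted limma p under 0.05, beside 4.68% of all genes. This was Crabp1, a retinoic acid binding protein, at 0.69 ± 0.26 (SE), whose somite slope was 0.21 ± 0.07. The receptor gene Rara differed by 0.36 ± 0.18. All but one of the 16 repressor and methylation genes were above the receptor range in every array. Max, which binds the E-box together with Mga, differed by 0.40 ± 0.15 and the histone methyltransferase Ehmt2 by 0.31 ± 0.14. These 2 of the 16 had an unadjusted limma p under 0.05, beside 4.68% of all genes. Pcgf6, of a repressive Polycomb complex, had a slope of 0.21 ± 0.06 per somite and Uhrf1, which guides maintenance methylation, of -0.30 ± 0.11 (limma adjusted p 0.420 and 0.474). Spermatid and oocyte genes lay below 0 in 15 of 21 and 12 of 15 cases, with medians of -0.07 and -0.06.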

How the data were processed

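RNA of sorted PGCs was isolated on micro columns, amplified and biotin-labelled with NuGEN Ovation FFPE WTA and Encore kits, per the labels' protocols. The deposited table holds 1 value per probe and array, taken as log2 from its range because the table names no unit. How the authors corrected background, normalized and summarised probes is, in the sources used here, not given. The deposited values were used as given (quantiles were not equal between arrays). Of 35557 probes, 21789 had 1 gene symbol in the platform annotation, 1621 had several and named no gene, and 12147 were unnamed here. The probe of highest mean stood for each of 999 genes with several.

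All 19938 genes were fitted with limma 3.58.1 in R 4.3.3 (lmFit, eBayes, Benjamini-Hochberg over all genes, threshold 0.05), by genotype, by somite number (range midpoints) with genotype, and by their interaction. Intervals cover 95%. Correlations used exact permutation of pairings (SciPy 1.17.1). The genotype fit was tested on simulated data. All members were named, plus the 2 genes of smallest p per list and fit, germ cell genes above the receptor range, and 2 genes of highest r per member above it. Members and lists were chosen with earlier results of these data known. Alternatives were normalization, probe choice, a filter, left-out arrays, priors, a replicate block and somite settings. Array number limits precision.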

Additional observations from a re-analysis of the deposited data

Results flagged for a closer look

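Among the 20 groups of 4 arrays checked for an outlying value, 1 stood out, where chance gives about 1 in 20. Sycp3 in mutant 2 was at 5.26, and the other mutants lay between 4.07 and 4.25.

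The somite slope of Ddx4 differed between the genotypes by 0.87 log2 per somite, mutant minus WT, at an unadjusted limma p of 0.0201. It did not pass the adjustment over all genes (0.999). Leaving out 1 array at a time gave unadjusted limma p-values from 0.0025 without WT 3 to 0.124 without mutant 4, and the difference stayed positive in each of these fits.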

How the results depend on the processing

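No member passed any limma test under any alternative run, and of 340 alternative values of member differences and slopes, 310 kept their direction. The count of all genes called for genotype was 0 in every setting, with 1715 genes at an unadjusted p under 0.05 without WT 1 in place of 934. For the somite slope, 5 genes passed without WT 3 and mutant 4 (Commd6, Igfbp2, Mir15a, Mir30e and Podxl), 1 with the high end of the somite range (Commd6), and 0 to 2 with 1 array left out (Podxl, Fmr1nb, Snora16a, Gdap10 or Commd6), none of them a member, and named after their values were seen. Of the members, 1 in place of 2 was above the 99th percentile of receptors in all arrays, and 1 above the 95th percentile of spermatid and oocyte genes, Tex19.1 in both cases. Genotype differences that turned sign were small: Taf7l at 0.022 after quantile normalization and 0.0073 after median centring, and Brdt at -0.012 with the somite covariate. With 1 array left out, Taf7l ran from -0.20 to 0.083, Brdt from -0.038 to 0.073, Hormad1 from -0.053 to 0.22 and Rec8 from -0.033 to 0.34. Slopes that turned sign were those of Ddx4 (-0.12) and Tex19.1 (-0.019) without WT 3 and mutant 4, and of Sycp1 without the genotype term (-0.013). Left out 1 at a time, the slope ran from -0.022 to 0.41 for Ddx4, -0.10 to 0.057 for Sycp1, -0.10 to 0.31 for Sycp3, -0.10 to 0.052 for Taf7l and -0.12 to 0.11 for Rec8. Embryos of the same replicate number did not deviate together (r from -0.19 to 0.10), and a replicate block changed no call. It left 0 genes called for genotype and 0 for the slope, lowered the genes at an unadjusted slope p under 0.05 from 1942 to 675, and turned the slopes of Sycp1 (-0.14), Sycp3 (-0.19), Tex19.1 (-0.0052) and Rec8 (0.072). The cause of these turns was not tested. Without scanner values, signal over background cannot be given, which limits what can be said of the members near or below the receptor range.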
